A study of Mus musculus with 9 samples.

Results

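The genes that encode Runx, Eto and Myb factors were followed in HPC7 cells, a mouse line of blood progenitors kept in culture with stem cell factor. They were Runx1, Runx2, Runx3, Cbfb, Cbfa2t2, Cbfa2t3, Myb, Mybl1 and Mybl2, chosen by name as members of these families and not by their values, and they make up 9 of the 27179 genes in the deposited table. All 9 were matched to a gene identifier, and all 9 passed the filter on low counts that left 12484 tested genes. The study compared 3 groups of 3 libraries, and all of them came from cells that carried the MSCV-IRES-GFP retrovirus and were sorted as GFP-positive 1 week after transduction. The vector held no gene in the empty vector group. It held wild-type Snai1 in the second group, and in the third a mutant Snai1 in which phenylalanine at residue 5 was replaced by alanine, a change that impairs binding to Lsd1. The cells grew in RPMI with 10% fetal calf serum, 0.05 mM 2-mercaptoethanol and 100 ng/ml mouse stem cell factor. The retroviral promoter drives Snai1 at levels far above those of the cell's own gene, and a single cell line was used. The labels do not say whether the replicates of a group were separate transductions or cultures, so the p-values cover the spread among these libraries alone, and that spread may be technical.

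Runx1, Runx2 and Runx3 are the DNA-binding alpha subunits of core-binding factor, and Cbfb encodes the beta subunit that binds no DNA itself and strengthens the hold of each Runx protein on its site. Runx1 is needed for blood stem cells to form in the embryo, Runx2 is best known as the master regulator of bone formation, and Runx3 acts in T cells and neurons among others. Cbfa2t2 (Mtgr1) and Cbfa2t3 (Eto2) are Eto corepressors, which carry histone deacetylase complexes. In blood progenitors Cbfa2t3 is part of the complex built around Tal1, Lmo2, Ldb1 and Gata factors. The third member of that family, Runx1t1 (Eto), is known from its fusion with RUNX1 in acute myeloid leukaemia. Myb keeps blood progenitors immature and dividing, Mybl1 is best known from germ cells, and Mybl2 works with the MuvB complex to switch on genes of mitosis.

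A pair of RUNX motifs lies near the annotated start of each Runx gene, and these short sequences are shown because they are nearly alike in all 3 genes. Promoter windows of 300 bases, from 250 bases before to 50 bases after each transcript start, were taken from RefSeq on GRCm38.p6, the assembly behind mm10. Such windows numbered 11 for 8 members, and no window of Mybl1 was in the table. The stretches below are written 5′ to 3′ on the strand of the gene, and capitals mark ACCACA, the reverse complement of the RUNX motif TGTGGT.
Runx1: aacaACCACAgaACCACAagtt
Runx2: aacaACCACAgaACCACAagtg
Runx3: ctcaACCACAgaACCACAaggc
These stretches lie at chr16:92826029-92826050 (minus strand), chr17:44814587-44814608 (minus strand) and chr4:135120507-135120528 (plus strand). In Runx1 the motifs begin at bases 29 and 37 of the transcript and in Runx2 at bases 24 and 32, while in Runx3 they begin 134 and 126 bases before the start. Runx2 has another match 80 bases before its start. The motif was found on either strand in 3 of the 11 windows of the members and in 16.8% of all 32851 windows. The paired form, with starts 8 bases apart, was found in 7 windows of the 32851 (0.0213%), those of Runx1, Runx2, Runx3, Gm12236, Gm15462, Gm16225 and Olfr24. The paired form was looked for after the sequences had been seen.

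Snai1 binds the E-box CAGGTG, whose reverse complement is CACCTG, and 3 windows of the members hold it. They are shown here up to the transcript start, in capitals at the match and otherwise in lower case, because they belong to 3 of the 4 members whose transcripts fell with wild-type Snai1.
Runx1: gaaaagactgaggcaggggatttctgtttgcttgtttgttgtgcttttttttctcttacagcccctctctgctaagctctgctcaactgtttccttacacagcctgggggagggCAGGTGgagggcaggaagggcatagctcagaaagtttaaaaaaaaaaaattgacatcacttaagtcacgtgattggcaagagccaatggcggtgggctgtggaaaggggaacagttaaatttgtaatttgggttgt
Runx3: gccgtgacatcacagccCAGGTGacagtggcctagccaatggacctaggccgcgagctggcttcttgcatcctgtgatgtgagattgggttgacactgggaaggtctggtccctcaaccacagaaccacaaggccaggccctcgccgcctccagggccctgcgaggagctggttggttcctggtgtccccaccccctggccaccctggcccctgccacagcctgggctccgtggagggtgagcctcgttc
Cbfa2t3: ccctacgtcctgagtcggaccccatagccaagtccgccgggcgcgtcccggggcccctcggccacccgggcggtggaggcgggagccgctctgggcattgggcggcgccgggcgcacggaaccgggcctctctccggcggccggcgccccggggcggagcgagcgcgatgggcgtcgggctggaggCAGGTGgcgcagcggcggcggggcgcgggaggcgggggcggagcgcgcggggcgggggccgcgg
The 250 bases of Runx1 lie at chr16:92826075-92826324 (minus strand), with the E-box 136 bases before the first of its 2 starts. Those of Runx3 lie at chr4:135120395-135120644 (plus strand), with the E-box 233 bases before the first of its 2 starts. Those of Cbfa2t3 lie at chr8:122678176-122678425 (minus strand), with the E-box 64 bases before the second of its 2 starts. The E-box was found on either strand in 3 of the 11 windows and in 20.2% of all 32851 windows, so that such a match is common. Runx1, Runx3 and Cbfa2t3 have 2 windows each, and every other member with a window has 1. They thus had more sequence in which a match could fall, and the share by window is no background for a count by gene. The window of Myb, the fourth member that fell, has no match to these letters. In Runx1, Runx3 and Cbfa2t3 the E-box lies in only 1 of the 2 windows. The counts are by gene, so they do not show which start was in use in these cells. Neither motif overlaps the other in these windows, and no binding was measured.

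**Figure D1:**
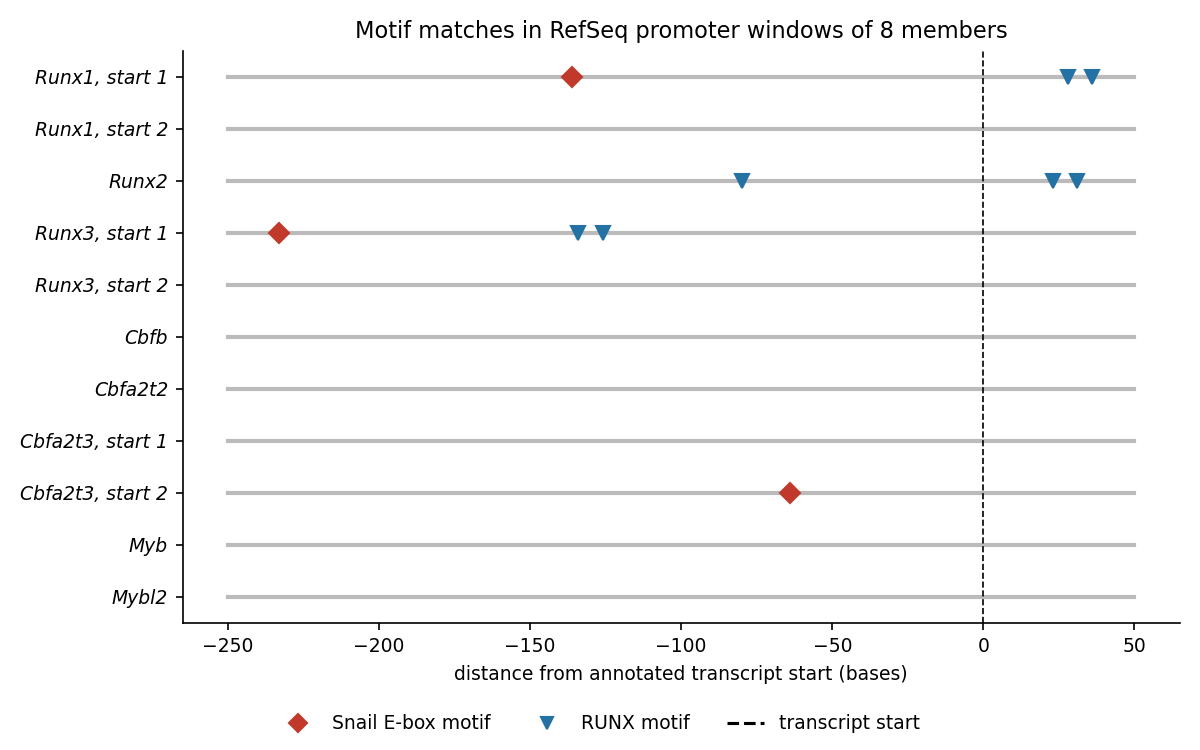
Matches to the Snail E-box (diamonds) and to the RUNX motif (triangles) in the 11 RefSeq promoter windows of 8 members, with the distance from the annotated transcript start in bases on the x axis and 1 grey line per window. The E-box lies in 3 windows, and RUNX motifs 8 bases apart lie in the first window of each of the 3 Runx genes.

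The libraries held 18332451 to 20860314 counts, at which 3 counts equal 0.144 to 0.164 counts-per-million units (CPM). Levels are given as CPM on TMM-scaled library sizes. Snai1 was at 0.828 ± 0.205 CPM in the empty vector libraries, 492 ± 68.5 CPM in the wild-type libraries and 460 ± 40.2 CPM in the mutant libraries (SD, n = 3), and Kdm1a, which encodes Lsd1, had means of 199 to 201 CPM. All 9 blood progenitor markers were detected in every group, with a summed level of 12225 to 13052 CPM with empty vector, 10391 to 10879 CPM with wild-type Snai1 and 13011 to 13373 CPM with the mutant. The order turns without Mpo, the most abundant of them in the controls: the other 8 markers summed to 7491 to 7723, 7821 to 9448 and 7471 to 7690 CPM in the same order. These markers did not move together. Of the 9, 2 (Cd34 and Lmo2) were higher in all wild-type libraries than in all empty vector libraries, and 3 (Tal1, Lyl1 and Mpo) were lower. For these and the other marker lists, the share of all tested genes so separated was not computed. The mean of Cd34 was 2136.5 CPM with empty vector and 3274 CPM with wild-type Snai1. Marker sums of other blood cells differed in the wild-type libraries. The 6 monocyte and macrophage markers summed to 17.4 to 19.5 CPM with empty vector, 200 to 333 CPM with the wild type and 17.7 to 21.1 CPM with the mutant. Of these 6 genes, 5 were higher in all wild-type libraries than in all empty vector libraries, while Fcgr1 was lower (means of 4.63 and 2.43 CPM). The 6 megakaryocyte markers summed to 1171 to 1284, 1551 to 1945 and 1049 to 1123 CPM in the same order, with 4 genes higher and Gp9 lower. The mast cell and basophil sum, of 2738 to 3110, 3492 to 3796 and 3074 to 3228 CPM, is nearly all Cpa3, the only 1 of its 6 genes to pass the filter. Sums of lymphoid and erythroid markers were low and lower in the wild-type libraries. They were 12.1 to 14.2, 5.38 to 6.03 and 10.8 to 12.1 CPM for T cells (nearly all Lck), 2.98 to 3.81, 0.498 to 0.802 and 2.30 to 3.58 CPM for B cells, and 16.2 to 17.3, 9.63 to 13.9 and 16.5 to 19.8 CPM for erythroid cells. The T cell genes Cd3e and Cd2, the B cell genes Ms4a1 and Pax5 and the globins Hba-a1, Hba-a2 and Hbb-bs were at 0 counts in all libraries. In RNA from many cells, fewer cells of a type and less RNA per cell cannot be told apart, and the part of these marker shifts in the results on the 9 genes was not tested. Wild-type replicate 1 stood apart: its counts differed from those of replicates 2 and 3 by a median chi-square of 14.1 and 15.4 times the sampling expectation, against 1.99 to 5.46 for the other pairs of one group, and no pair agreed within sampling noise. Empty vector replicate 1 held 94658 counts of Lars2, against 13276 to 19888 in the other libraries.

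The question of the comparison with empty vector is what Snai1 changes in these cells. With wild-type Snai1, Runx1, Runx3, Cbfa2t3 and Myb fell and Mybl2 rose, while Runx2, Cbfb, Cbfa2t2 and Mybl1 did not pass the test. The test was the quasi-likelihood test of edgeR, and a call required an adjusted p under 0.05 after Benjamini-Hochberg adjustment over all 12484 genes. So 5 of 9 members were called, 1 higher and 4 lower, where 49.4% of all tested genes were called, 25.2% higher and 24.3% lower. The share of members called is therefore close to that of all genes. The median log2 fold change of the members was -0.24, beside 0.00 for all tested genes. Without wild-type replicate 1, which leaves 2 wild-type libraries, 8 of 9 members were called, all except Mybl1, and the share of all tested genes called rose as well, to 58.7%.

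**Figure D2:**
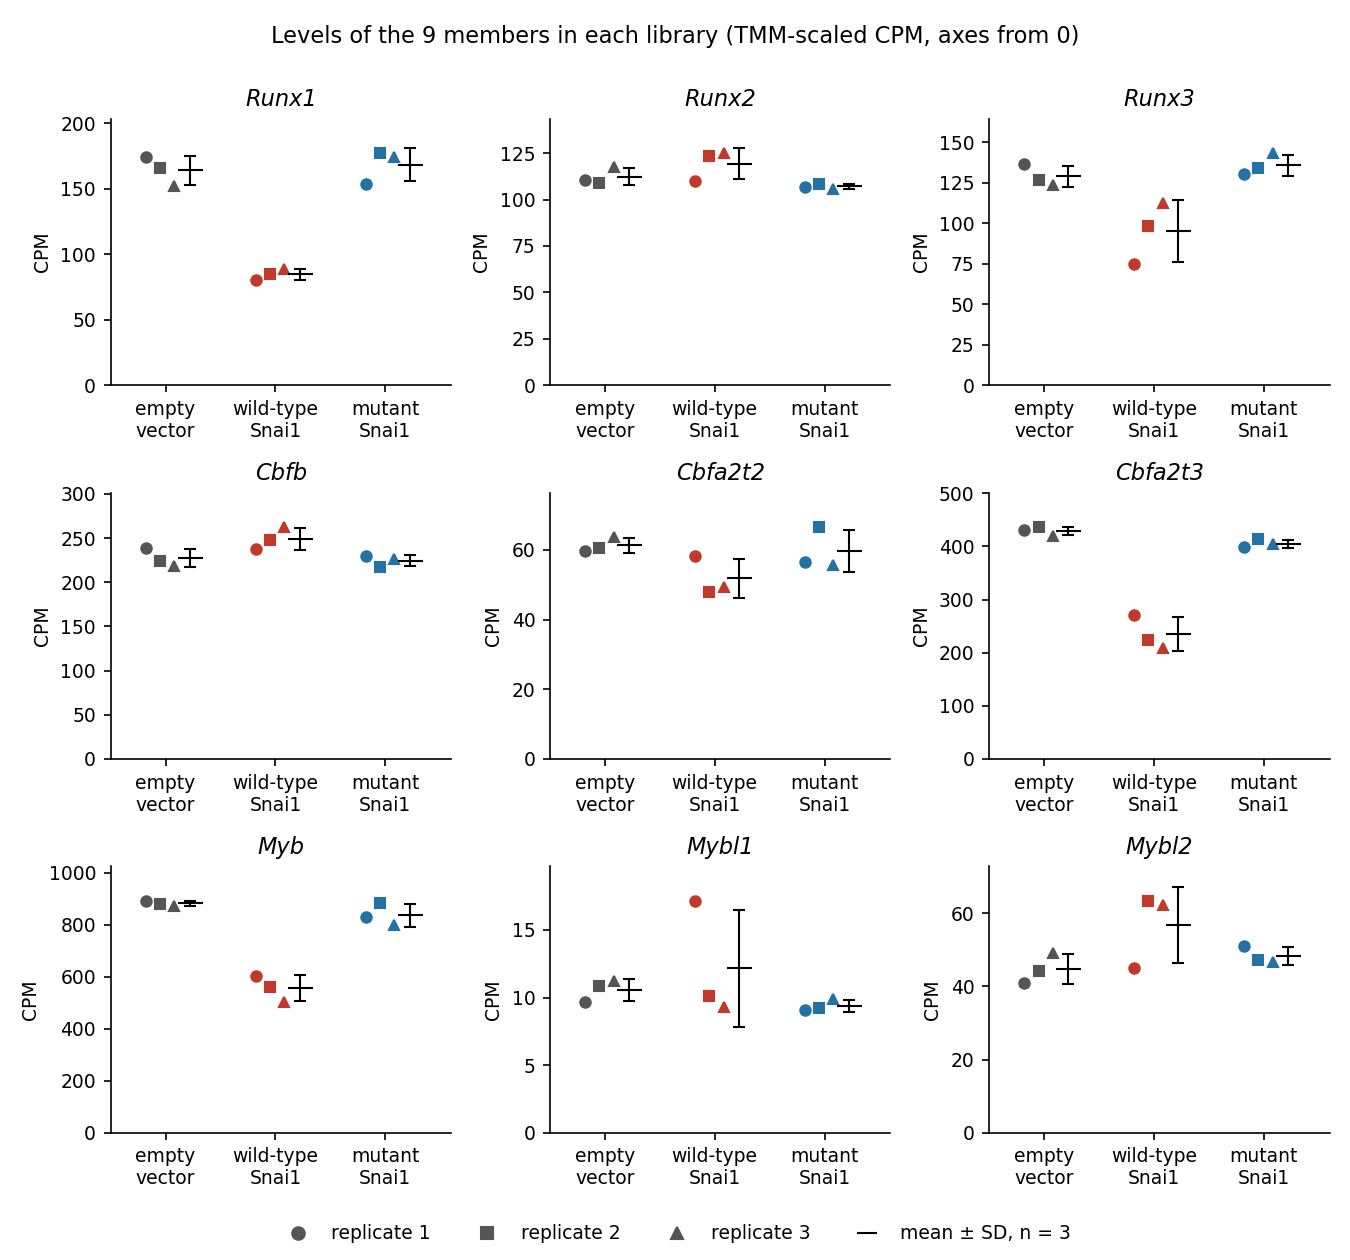
TMM-scaled CPM of the 9 members in each of the 9 libraries, with y axes from 0, a marker shape for each replicate number and the mean with 1 SD of 3 libraries per group. Runx1, Runx3, Cbfa2t3 and Myb lie lower in all 3 wild-type libraries than in the 6 others, while Mybl1 is high in wild-type replicate 1 alone. The share of all tested genes so separated was not computed.

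Among the DNA-binding subunits, Runx1 fell the most. Positions of the members are those of RefSeq on GRCm38.p6, and values by library are in the order of replicates 1 to 3. Where the libraries of a group are said below to lie apart from others, this describes the values only. The share of all tested genes so separated was not computed, so nothing more is read from it. Runx1 (Entrez gene 12394, chromosome 16, 92601466 to 92826074) had levels of 174, 166 and 152 CPM in replicates 1 to 3 of empty vector, of 80.1, 84.8 and 88.9 CPM in those of wild-type Snai1, and of 154, 177 and 174 CPM in those of the mutant. All 3 wild-type libraries were lower than the 6 others, and the empty vector and mutant libraries overlapped. Its log2 fold change with the wild type was -0.95 (SE 0.07, adjusted p 3.98e-06), a 1.94-fold lower level.

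Runx3 (Entrez gene 12399, chromosome 4, bases 135120645 to 135177990) gave 137, 126 and 124 CPM in the empty vector libraries, 75.0, 98.3 and 112 CPM in the wild-type libraries and 131, 134 and 143 CPM in the mutant libraries. The wild-type libraries were again below all others but spread more widely than the controls, with replicate 1 the lowest. Its log2 fold change was -0.44 (SE 0.12, adjusted p 0.0134), and -0.29 without wild-type replicate 1 (adjusted p 0.00100).

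Runx2 (Entrez gene 12393, chromosome 17, 44495987 to 44814797), transcribed here in blood cells, was at 111, 109 and 118 CPM in the empty vector libraries, 110, 124 and 125 CPM in the wild-type libraries and 107, 109 and 106 CPM in the mutant libraries. The empty vector and wild-type libraries overlapped. Its log2 fold change was 0.09 (SE 0.06, adjusted p 0.267), with a 95% interval from -0.05 to 0.23, and without wild-type replicate 1 it was 0.15 and called (adjusted p 0.0219). Its span overlaps Supt3, which was at 26.3 to 35.2 CPM across the libraries. The strand setting of the counting was not given in the sources used here, so reads from the shared stretch cannot be assigned with certainty.

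Cbfb, the shared beta subunit (Entrez gene 12400, chromosome 8, bases 105170674 to 105217989), gave 239, 224 and 219 CPM in the empty vector libraries, 238, 247 and 262 CPM in the wild-type libraries and 229, 218 and 226 CPM in the mutant libraries. Its lowest wild-type library lay below the highest empty vector library. The log2 fold change was 0.13 (SE 0.06, adjusted p 0.0740), with a 95% interval from 0.01 to 0.26, and it was 0.17 and called without wild-type replicate 1 (adjusted p 0.0119).

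Both Eto corepressors were measured, while Runx1t1 had 0 counts in all 9 libraries, which allows at most 0.164 CPM in any of them by counting error alone. Cbfa2t3 (Entrez gene 12398, chromosome 8, bases 122625136 to 122699332) gave 431, 436 and 420 CPM in the empty vector libraries, 270, 224 and 209 CPM in the wild-type libraries and 398, 413 and 404 CPM in the mutant libraries. The 3 groups did not overlap at all, with the mutant libraries just under the controls and the wild-type libraries far below both. The log2 fold change with the wild type was -0.87 (SE 0.08, adjusted p 1.502e-05), a 1.83-fold lower level.

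Cbfa2t2 (Entrez gene 12396, chromosome 2, bases 154436098 to 154539356) gave 59.6, 60.6 and 63.7 CPM in the empty vector libraries, 58.2, 47.9 and 49.3 CPM in the wild-type libraries and 56.5, 66.5 and 55.7 CPM in the mutant libraries. Every wild-type library was lower than every empty vector library, replicate 1 only slightly. The log2 fold change was -0.24 (SE 0.09, adjusted p 0.0517), with a 95% interval from -0.45 to -0.04. It missed the threshold here and was -0.33 and called without wild-type replicate 1 (adjusted p 0.00130).

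Myb had the highest level of the 9 genes, also per kilobase. Myb (Entrez gene 17863, chromosome 10, bases 21124930 to 21160984) gave 892, 881 and 874 CPM in the empty vector libraries, 603, 561 and 504 CPM in the wild-type libraries and 830, 886 and 798 CPM in the mutant libraries. All wild-type libraries were lower than the 6 others, and the mutant libraries overlapped the controls. Its log2 fold change was -0.67 (SE 0.07, adjusted p 2.97e-05), a 1.59-fold lower level.

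Mybl2, the family member tied to the cell cycle (Entrez gene 17865, chromosome 2, bases 163054327 to 163084688), gave 40.8, 44.2 and 49.0 CPM in the empty vector libraries, 44.9, 63.3 and 62.1 CPM in the wild-type libraries and 51.1, 47.1 and 46.7 CPM in the mutant libraries. Wild-type replicates 2 and 3 were above all other libraries, and replicate 1 lay among the controls. The log2 fold change was 0.35 (SE 0.12, adjusted p 0.0408). That call was lost with upper quartile scaling (0.29, adjusted p 0.0752), with limma-voom and when only these 2 groups were fitted. It was also lost when any 1 library was left out other than empty vector replicate 3 or wild-type replicate 1, with values from 0.26 to 0.35. Without wild-type replicate 1 it was 0.49 (adjusted p 2.75e-05).

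Mybl1 (Entrez gene 17864, chromosome 1, bases 9667407 to 9700439) gave 9.68, 10.8 and 11.2 CPM in the empty vector libraries, 17.1, 10.1 and 9.28 CPM in the wild-type libraries and 9.07, 9.23 and 9.92 CPM in the mutant libraries. A single library, wild-type replicate 1, was high, and the others lay close together. The log2 fold change was 0.20 (SE 0.20, adjusted p 0.440) with all libraries and -0.13 without wild-type replicate 1.

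**Figure D3:**
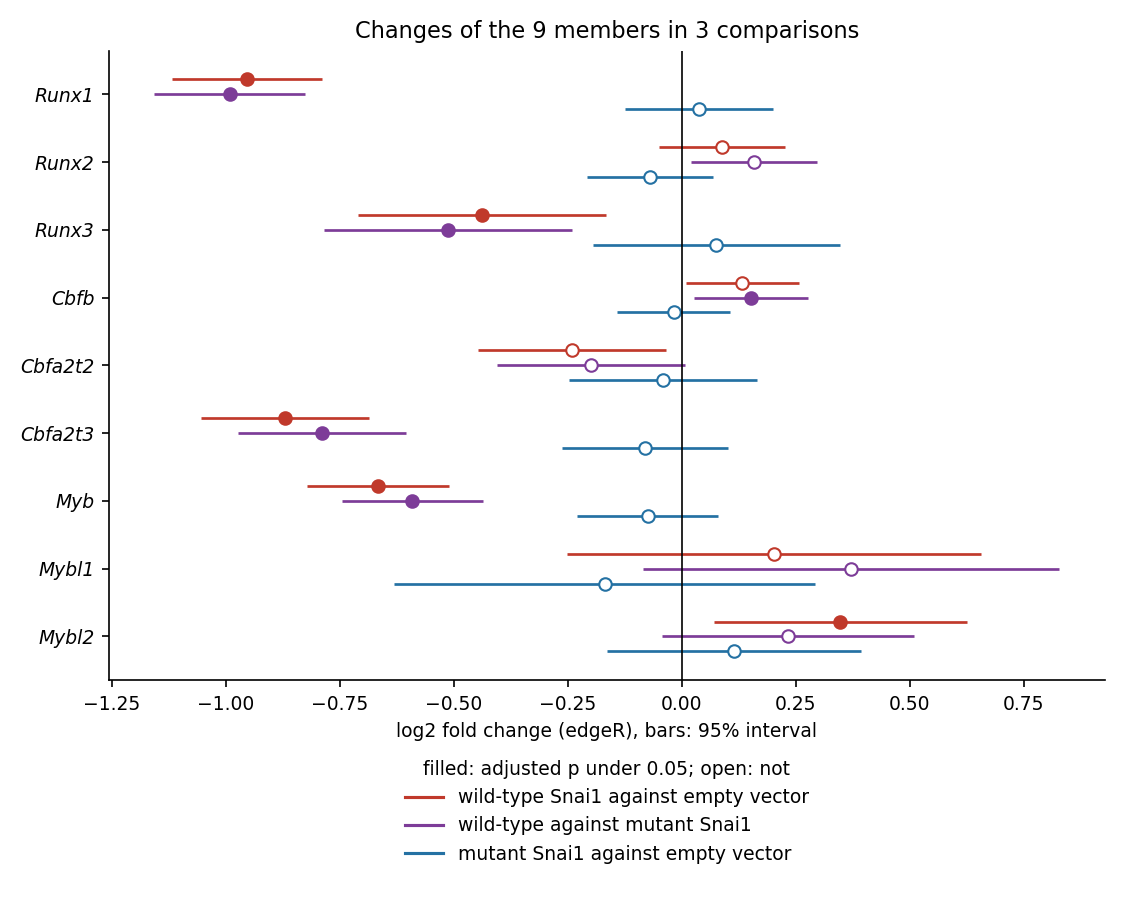
Log2 fold changes of the 9 members from edgeR in 3 comparisons (x axis), with 95% intervals as bars, and filled points where the adjusted p was under 0.05. Runx1, Runx3, Cbfa2t3 and Myb were lower with wild-type Snai1 against either other group, while every interval of mutant Snai1 against empty vector includes 0.

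With mutant Snai1 none of the 9 members was called against empty vector. The count was 0 of 9, also at an unadjusted p under 0.05 and also by DESeq2 and limma-voom, and adjusted p ran from 0.998 to 0.999. In that comparison 0.00801% of all tested genes were called, which is the 1 gene Snai1 itself (0.00801% higher and 0% lower), while 603 genes had an unadjusted p under 0.05. Log2 fold changes of the members ran from -0.17 for Mybl1 to 0.11 for Mybl2. The 95% interval was -0.12 to 0.20 for Runx1, -0.26 to 0.10 for Cbfa2t3 and -0.23 to 0.08 for Myb. For these 3 genes the intervals leave out changes of the size seen with wild-type Snai1. The interval of Runx3 was wider, from -0.19 to 0.35, and also leaves out its change of -0.44 with the wild type. That of Mybl1, from -0.63 to 0.29, was wider still and includes its 0.20. In Runx2 and Cbfa2t3 all mutant libraries were below all empty vector libraries, by log2 fold changes of -0.07 and -0.08, without passing the test. Such a separation of 3 libraries from 3 reaches only p = 0.1 in an exact two-sided permutation test. The share of all tested genes so separated was not computed, so nothing is read from these 2 members.

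The difference between both forms of Snai1 was tested directly, since both share the empty vector controls in the other comparisons. Against the mutant, Runx1, Runx3, Cbfa2t3 and Myb were lower with the wild type, and Cbfb was higher. The log2 fold changes were -0.99 for Runx1 (SE 0.07, adjusted p 3.09e-06), -0.79 for Cbfa2t3 (SE 0.08, adjusted p 3.19e-05), -0.59 for Myb (SE 0.07, adjusted p 7.26e-05) and -0.51 for Runx3 (SE 0.12, adjusted p 0.00615). In each of these 4 genes, 3 of 3 wild-type libraries were lower than all mutant libraries, and the share of all tested genes so separated was not computed. Cbfb was higher by 0.15 (SE 0.06, adjusted p 0.0470), a call lost with upper quartile scaling (0.09, adjusted p 0.240) and whenever 1 library was left out other than wild-type replicate 1. Runx2 (0.16, adjusted p 0.0575), Cbfa2t2 (-0.20, adjusted p 0.101), Mybl2 (0.23, adjusted p 0.149) and Mybl1 (0.37, adjusted p 0.164) did not pass. So 5 of 9 members were called, 1 higher and 4 lower, beside 47.9% of all tested genes, 24.5% higher and 23.4% lower. Without wild-type replicate 1, 8 of 9 were called here as well, beside 57.9% of all tested genes.

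Levels of different genes were compared per kilobase of the deposited gene length, as RPKM, which is CPM divided by the length in kilobases. With empty vector the order of mean RPKM was Myb (234 ± 2.32), Cbfb (78.0 ± 3.51), Cbfa2t3 (53.9 ± 1.02), Runx3 (33.1 ± 1.72), Runx1 (22.2 ± 1.5002), Runx2 (16.2 ± 0.690), Mybl2 (12.1 ± 1.11), Cbfa2t2 (10.1 ± 0.353) and Mybl1 (2.97 ± 0.224), each as SD over n = 3. No neighbours in that order overlapped, Mybl2 and Cbfa2t2 being the closest. With mutant Snai1 the order was the same. With wild-type Snai1, Runx1 at 11.5 ± 0.595 RPKM came after Runx2 at 17.2 ± 1.20 and Mybl2 at 15.3 ± 2.79. In that group the libraries of Runx2 and Mybl2 overlapped, as did those of Cbfa2t3 (29.4 ± 3.97) and Runx3 (24.5 ± 4.85). Myb (147 ± 13.1) and Cbfb (85.5 ± 4.23) stayed in the first and second place.

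The makeup of the Runx pool, taken as RNA per kilobase, is given by library, and the test of the Runx1 share follows below. Runx1 was 31.6%, 31.8% and 29.7% of the summed Runx RPKM in the empty vector libraries, 23.6%, 21.1% and 20.5% in the wild-type libraries and 29.9%, 32.4% and 31.3% in the mutant libraries. The wild-type values lay below all others. Runx2 was 22.7 ± 1.60% of the pool with empty vector, 32.6 ± 1.95% with the wild type and 21.1 ± 0.951% with the mutant (SD, n = 3), and Runx3 was near 46.3, 45.7 and 47.7% in the same order. The summed Runx RPKM was 71.6 ± 2.71, 53.2 ± 6.59 and 73.2 ± 3.05. Cbfb RPKM divided by that sum was 1.09 ± 0.00803 with empty vector, 1.62 ± 0.136 with the wild type and 1.05 ± 0.0642 with the mutant (SD, n = 3). This ratio was not tested, and levels of the proteins were not measured.

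Of the Eto pair, Cbfa2t3 held 84.2 ± 0.695% of the summed RPKM with empty vector, 77.5 ± 0.967% with the wild type and 83.9 ± 1.13% with the mutant (SD, n = 3). Mybl2 held 4.41%, 4.81% and 5.34% of the Myb family with empty vector, 6.86%, 10.2% and 10.98% with the wild type and 5.84%, 5.09% and 5.57% with the mutant, so that replicate 1 was the lowest of the wild-type libraries but still above the others. For each of the 3 shares the wild-type libraries lay apart from the empty vector libraries and from the mutant libraries. The exact two-sided permutation test gave p = 0.1, the smallest that 3 libraries against 3 can give, and 0.15 after adjustment over the 9 share comparisons. Mutant and empty vector shares overlapped, with exact p of 0.9 for Runx1, 0.7 for Cbfa2t3 and 0.2 for Mybl2.

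**Figure D4:**
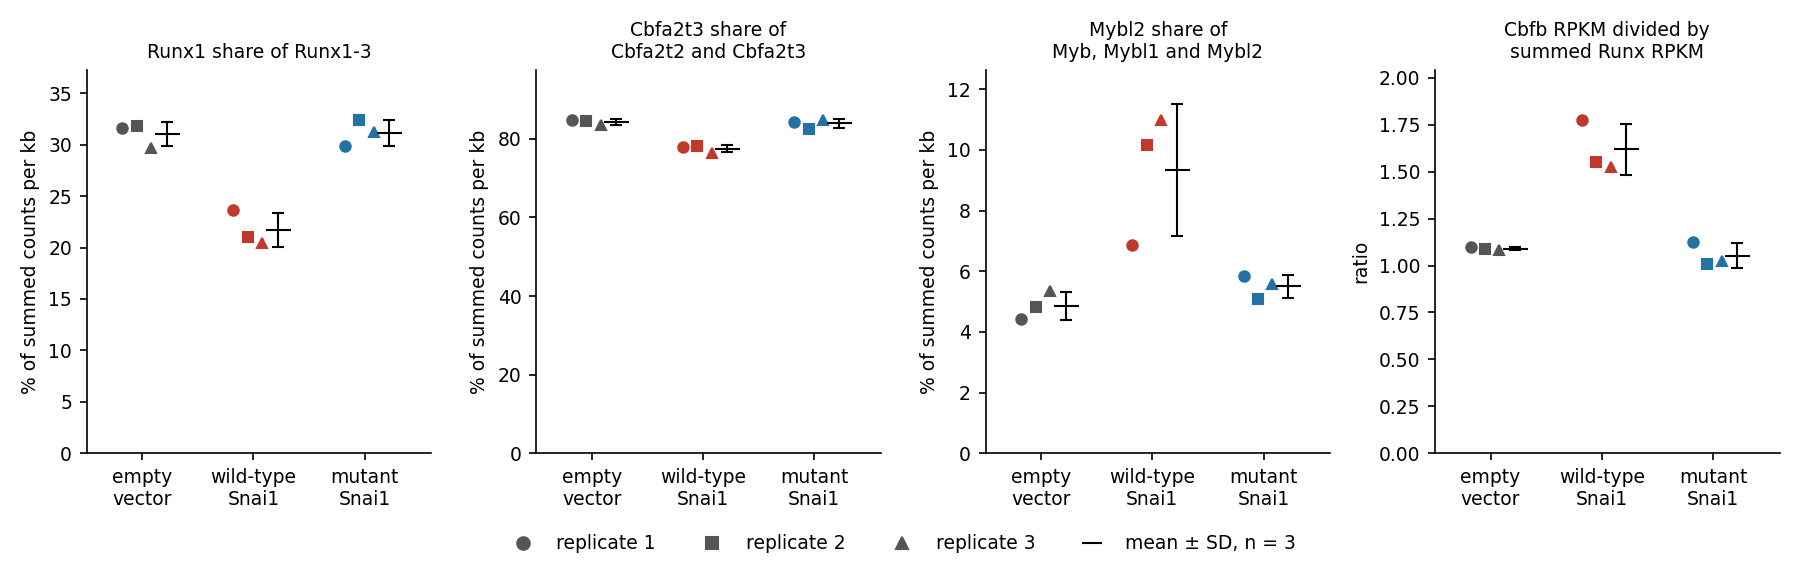
Share of Runx1, Cbfa2t3 and Mybl2 in the summed counts per kilobase of their families (percent, y axes from 0) and the ratio of Cbfb RPKM to summed Runx RPKM in each library, with mean and 1 SD of 3 libraries per group. In all 4 panels the 3 wild-type libraries lie apart from the 6 others, while the empty vector and mutant libraries overlap.

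Genes known to work with or under these factors were counted in 8 lists, whose 124 different genes do not include the 9. Of these, 109 were tested, and 53 were called with wild-type Snai1 against empty vector, where 49.4% of all genes were called. With the mutant 0 of the 109 were called, by edgeR, DESeq2 and limma-voom alike, and 5 (4.59%) had an unadjusted p under 0.05, beside 4.83% of all genes. With wild type against mutant 47 of the 109 were called, where 47.9% of all genes were called. The rises and falls counted in each list below stand beside 25.2% of all tested genes called higher and 24.3% called lower with wild-type Snai1 against empty vector. Log2 fold changes below are those of wild-type Snai1 against empty vector, with adjusted p from edgeR.

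Of 18 tested cofactors of core-binding factor, 1 rose (Fli1) and 4 fell, with a median of -0.01. Tle4, a Groucho-type corepressor that binds Runx proteins, fell by 1.39 (adjusted p 4.84e-06), from 57.8 ± 1.82 to 22.002 ± 3.98 CPM (SD, n = 3). Kmt2a, a histone H3 lysine methyltransferase that partners Runx1, fell by 0.53 (adjusted p 1.75e-04). The Ets-type repressor Etv6 fell by 0.32 (adjusted p 0.00276) and the histone deacetylase Hdac1 by 0.30 (adjusted p 0.00631). The acetyltransferases Ep300 (0.13, adjusted p 0.125) and Crebbp (0.03, adjusted p 0.893) did not pass. The rises numbered 0 without empty vector replicate 1 and 2 without wild-type replicate 1.

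In the list of the Eto corepressor and SCL (Tal1) complex 3 of 21 tested genes rose and 9 fell, with a median of -0.21. Gata1, the erythroid and megakaryocytic transcription factor, was at 15.04 ± 0.899 CPM with empty vector and 3.22 ± 0.894 CPM with the wild type (SD, n = 3), with adjusted p 4.07e-06. Its partner Zfpm1 fell by 0.62 (adjusted p 7.14e-06) and the E protein Tcf3 by 0.55 (adjusted p 3.12e-05). The scaffold Lmo2 went the other way, from 66.3 ± 3.58 to 133.9 ± 8.79 CPM, a rise of 1.01 (adjusted p 1.52e-06). Beside these, Ldb1, Tal1, Gfi1b, Hdac2, Hdac1 and Lyl1 fell and Sin3b rose, names chosen after their values were seen. Without wild-type replicate 1, 14 of these genes were lower, while the share of all tested genes that were lower went from 24.3% to 28.8%.

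Of the 20 RUNX target genes in blood, 14 were tested, 3 rose and 7 fell, with a median of -0.48. Csf1r, the receptor of macrophage colony-stimulating factor, rose by 3.26 (adjusted p 4.30e-06), from 2.09 ± 0.515 to 19.95 ± 6.03 CPM (SD, n = 3). The platelet chemokine Pf4 rose by 1.89 (adjusted p 1.59e-05) and the cytokine receptor chain Csf2rb by 1.85 (adjusted p 5.03e-05). The list thus moved in both directions. Csf1r and Pf4 are also in the monocyte and megakaryocyte marker lists whose sums differed, and the part of other cell types in these values was not tested. Without wild-type replicate 1 the rises numbered 5, while the share of all genes that rose went from 25.2% to 29.9%.

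Only 1 of the 8 RUNX2 targets of bone and cartilage passed the filter. Spp1, the secreted phosphoprotein osteopontin that macrophages also make, rose by 6.24 (SE 0.83, adjusted p 3.24e-04), from 0.193 ± 0.206 to 14.8 ± 11.9 CPM (SD, n = 3), with a wide spread between wild-type libraries. Since it passed the filter through the group where it is high, its rise says nothing of the list.

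Among 14 MYB partners and regulators 3 rose and 2 fell, with a median of 0.00. Psip1, which joins the Kmt2a and menin complex to chromatin, fell by 0.65 (adjusted p 5.27e-06). Cebpb, a myeloid factor that works beside Myb at several promoters, rose from 0.570 ± 0.151 to 5.99 ± 2.70 CPM, which is 3.38 on the log2 scale (adjusted p 1.02e-04). Its means were low in the other groups, at 0.570 CPM with empty vector and 0.356 CPM with the mutant. It may have passed the filter through the wild-type libraries alone, so nothing about the list is read from its rise. Fbxw7, part of a ubiquitin ligase that takes Myb to degradation, rose by 0.30 (adjusted p 0.0312). Kmt2a, named above, is also in this list. These counts were not stable: 1 gene rose when empty vector replicate 1, 2 or 3 was left out, and the falls numbered 5 without wild-type replicate 1 and 4 without wild-type replicate 2.

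Of the 18 MYB target genes 16 were tested, 6 rose and 4 fell, with a median of -0.01. The cytokine receptor gene Flt3 was at 28.9 ± 5.00 CPM with empty vector and 1.91 ± 0.379 CPM with the wild type (SD, n = 3), a log2 fold change of -3.92 (adjusted p 7.43e-08). The chemokine receptor Cxcr4 fell by 2.81 (adjusted p 1.05e-07), from 48.9 ± 5.07 to 6.97 ± 0.626 CPM, and Myc fell by 0.77 (adjusted p 1.01e-05). Lmo2, named above, was among the rises. The granule enzyme Mpo, listed under both RUNX and MYB, was at 4734 to 5329 CPM with empty vector and at 943, 2653 and 3058 CPM in wild-type replicates 1 to 3. It fell by 1.20 (adjusted p 0.0247), with replicate 1 the lowest of the wild-type libraries. Kit, a classical Myb target and the receptor of the stem cell factor in the medium, had a log2 fold change of -0.09 (adjusted p 0.257).

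Of the 13 subunits of the MuvB and DREAM complexes, with which Mybl2 works, 4 rose and 3 fell, with a median of 0.08. The pocket proteins Rbl2 and Rbl1 rose by 0.42 (adjusted p 9.53e-04) and 0.20 (adjusted p 0.00623). The E2F partner Tfdp2 fell by 0.54 (adjusted p 3.30e-04) and E2f4 by 0.42 (adjusted p 0.00893). The rises numbered 2 without empty vector replicate 1.

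The 22 mitotic targets of Mybl2 and MuvB held 4 rises and 3 falls, with a median of 0.03. The survivin gene Birc5 rose by 0.49 (adjusted p 0.00622), the mitotic kinesin Cenpe by 0.45 (adjusted p 0.00602) and the cyclin Ccna2 by 0.39 (adjusted p 0.0155). The spindle protein Nusap1 fell by 0.47 (adjusted p 0.00563). The rises numbered 10 without wild-type replicate 1, when 29.9% of all genes rose, but 2 without wild-type replicate 2 and 2 without empty vector replicate 1. The falls numbered 1 without empty vector replicate 2 or 3.

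**Figure D5:**
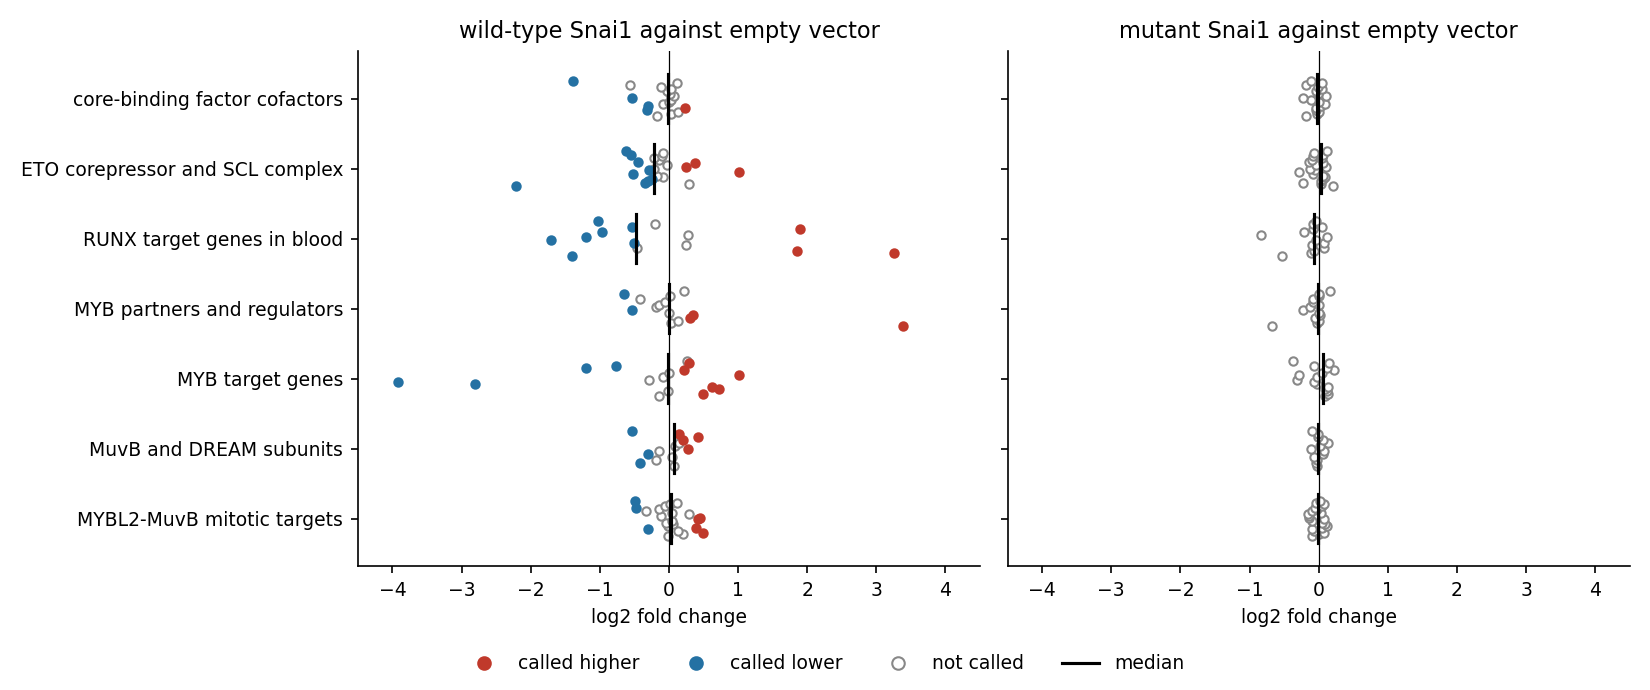
Log2 fold changes (x axis) of the tested genes of 7 lists with wild-type Snai1 (left) and mutant Snai1 (right) against empty vector, 1 point per gene, coloured where the adjusted p was under 0.05, with a black bar at the list's median. The lists spread to both sides with the wild type, from -3.92 for Flt3 to 3.38 for Cebpb, while no gene was called with the mutant. Cebpb may have passed the filter through the wild-type libraries alone.

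Genes whose levels followed each member most closely over the 9 libraries were sought among 10735 genes with a symbol and a mean of at least 1 CPM, as a description of these libraries, which share the difference between groups. Runx1 was followed by Malt1 and Zfp184 (Pearson r of log2 CPM 0.998 and 0.997), Cbfa2t3 by Traf3ip3 and Golm2 (both 0.999) and Myb by Frat2 and Calcoco1 (0.997 and 0.996). Runx3 was nearest to Gpc3 and Dars (both 0.987), which also had their lowest mean with the wild type. Gpc3 was at 63.0 CPM in the empty vector libraries, 23.7 CPM in the wild-type libraries and 66.4 CPM in the mutant libraries. For the remaining members the nearest genes were Gen1 and Ctdspl for Runx2 (0.979 and 0.963), Tsn and Arf4 for Cbfb (0.977 and 0.9752), Irf9 and Glrx2 for Mybl1 (0.979 and 0.978) and Nup85 and Paxip1 for Mybl2 (0.979 and 0.976). Cbfa2t2 was nearest to Zbtb5 and Zfp369 (0.973 and 0.972).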

How the data were processed

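RNA was sequenced from 9 libraries of HPC7 cells made with a TruSeq stranded mRNA kit, per the labels' protocols. The authors deposited raw counts for each gene with a gene length, made with featureCounts on mm10, per the submitters' processing notes, which also name edgeR 3.15.0 and limma 3.29.12. For the aligner, the annotation and the strand setting nothing is given in the sources used here. The table held 0 columns of other samples.

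Differential expression was computed with edgeR 4.0.16 in R 4.3.3. Genes were filtered with filterByExpr and scaled with TMM, and all 9 libraries entered 1 robust quasi-likelihood fit whose biological coefficient of variation had a median of 9.05%. The SE of a log2 fold change is its size divided by the square root of F. RPKM was computed from the deposited lengths. Family shares were tested with exact two-sided permutation tests (scipy 1.17.1). Symbols were matched through RefSeq for 25275 of 27179 genes. Spans of Runx1, Runx2, Cbfb, Cbfa2t2, Cbfa2t3 and Mybl2 overlap other annotated genes, and without a stated strand setting reads of the overlap cannot be assigned with certainty. Floors from 3 counts cover counting error only. The intervals of log2 fold changes rest on the SE of the fit, so they cover the spread among these libraries alone.

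Earlier results of these data were known when the members and lists were chosen. The members were taken by family name and not by their values. From each list up to 4 genes with the smallest adjusted p in wild type against empty vector were named by rule, beside the 9 members, Snai1 and Kdm1a. For each member the 2 genes with the highest correlation over the libraries were named too, placeholder symbols being passed over. Some listed genes are counted in their lists but not reported here by name. Fli1, Ep300, Crebbp, Mpo, Kit and the further genes of the Eto list were named after their values were seen. The fit was tested on simulated data with few changed genes, an even spread and no outlying library. That setting differs from these data, so the simulation does not show how the fit performs on them. Alternatives were RLE and upper quartile scaling, DESeq2 1.42.0, limma-voom 3.58.1, no filter, at least 1 CPM in at least 3 libraries, only the 2 groups compared, a replicate block and leaving out each library. Replicate numbers were not used as pairs.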

Additional observations from a re-analysis of the deposited data

How the results depend on the processing

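Runx1, Runx3, Cbfa2t3 and Myb kept their direction and call under all 17 alternatives in both comparisons with wild-type Snai1, and 0 members were called with the mutant under any of them. The calls of the smaller changes depended on the setting. Against empty vector, Cbfb was called by DESeq2 (0.14), Cbfa2t2 with upper quartile scaling (-0.30), limma-voom (-0.25) and no filter (-0.26), and Mybl2 was not called with upper quartile scaling (0.29), limma-voom (0.33) or only the 2 groups fitted (0.35). Wild type against mutant, Runx2 was called with RLE scaling and by DESeq2 (0.17 each) and Cbfa2t2 with upper quartile scaling (-0.26), while Cbfb was not called with upper quartile scaling (0.087), no filter or only the 2 groups (0.14 each). Genes called with the mutant numbered 10 by DESeq2, 2 by limma-voom and 30 with only the 2 groups, beside 1. From raw counts without length, the difference in the Runx1 share was -12.0 points against empty vector and -12.5 against the mutant, and that in the Cbfa2t3 share -5.63 against empty vector.

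Leaving out each library in turn, 4 to 8 members were called in each comparison with the wild type, 8 of them without wild-type replicate 1. All genes called numbered 5106 to 7410 against empty vector and 4978 to 7308 against the mutant, most without that same library. With the mutant against empty vector they numbered 1 to 62, with 62 without that library and 2 without wild-type replicate 2. Against empty vector the fold changes ran from 0.064 to 0.15 for Runx2, 0.10 to 0.17 for Cbfb, -0.33 to -0.19 for Cbfa2t2, -0.13 to 0.38 for Mybl1 and 0.26 to 0.49 for Mybl2. Wild type against mutant they ran from 0.13 to 0.21 for Runx2, 0.12 to 0.18 for Cbfb, -0.29 to -0.11 for Cbfa2t2 and 0.15 to 0.38 for Mybl2. With the mutant they crossed 0 for Runx1 (-0.012 to 0.10), Cbfb (-0.043 to 0.018, and 0.00 without mutant replicate 2) and Cbfa2t2 (-0.13 to 0.0053). The cause of these shifts was not tested. Of 576 recomputed list counts 542 stayed within 1.5 times and 34 moved, 10 of them without wild-type replicate 1.

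The replicate numbers are not known to pair the samples: 4 of 9 libraries correlated best with their own number, with correlations of -0.0873 to 0.21 within a number. With a replicate block 5, 0 and 4 members were called in the 3 comparisons, with Cbfb against the mutant at 0.15 (adjusted p 0.0774), and 5886, 1 and 5732 genes. The block gave 1 rise and 4 falls among the MYB partners.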
